A study of Homo sapiens with 13 samples.

Results

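Described here are 9 genes tied to the response of tumor cells to DNA-damaging drugs, namely the Schlafen genes *SLFN5*, *SLFN11*, *SLFN12* and *SLFN13*, the alkylation repair gene *MGMT*, topoisomerase I (*TOP1*), *PARP1*, *PARP2* and the phosphodiesterase gene *TDP1*. They were picked by gene symbol and are 9 of the 56831 genes in the tables. RNA was sequenced from H82 and H146, established human small cell lung cancer (SCLC) cell lines, each WT by genotype and each derived from 1 tumor. Untreated cells were compared, within each line, with cells kept for 14 days in 100 nM FHD-286, a dual inhibitor of the ATPases SMARCA4 and SMARCA2, which drive the SWI/SNF chromatin remodeling complex. For H82 there were 3 libraries of untreated cells and 3 of cells given FHD-286. For H146 there were 3 and 4. The untreated cells are labelled as given no treatment, and no vehicle is mentioned. The sources do not say whether the libraries of a group came from separate cultures, so each p-value measures only the spread between these libraries, which may be technical.

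Levels are given as TPM, in which reads are corrected for gene length and each library has the same sum, so that genes can be compared with each other. TPM holds no read count. The depth of each library is therefore unknown, and no limit of detection is given. As for cell identity, the neuroendocrine markers *SYP*, *CHGA*, *INSM1*, *NCAM1*, *UCHL1* and *DLL3* were at 12.5 TPM or above in all 13 libraries. *NEUROD1*, which marks the subtype of H82, was at 48.0 TPM or above in H82 and at most 0.521 TPM in H146. With the drug, the mean in H82 went from 202 to 46.8 TPM for *SYP*, 143 to 32.6 for *CHGA* and 230 to 83.6 for *NEUROD1*. It went from 14.4 to 121 TPM for *INSM1*, 412 to 896 for *UCHL1*, 52.9 to 64.2 for *NCAM1* and 105 to 132 for *DLL3*. In H146 the mean of *NCAM1* was higher with the drug and those of the other markers named were lower. These changes were not tested. A list of 8 leukocyte, fibroblast and endothelial markers summed in H82 to 3.24 to 6.07 TPM without and 4.52 to 28.4 TPM with the drug, and in H146 to 11.5 to 15.1 TPM without and 17.5 to 25.5 TPM with it. *CD3E* and *CDH5* were listed at 0 in all untreated H82 libraries and *CD3E* in all treated ones. The part of such transcripts in the results was not tested.

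Some libraries stood apart. In treated H82 replicate 1, the 100 most abundant genes took 45.9% of all TPM, against 34.2% to 35.2% in replicates 2 and 3. Treated H82 replicate 2 held RNA of genes that mark the other line. A set of 57 genes that were at 20 TPM or more in every H146 library and at most 0.1 TPM in untreated H82 had a median of 1.55 TPM there, against 0.247 and 0.122 TPM in replicates 1 and 3. The share of TPM from mitochondrial genes went in H82 from 22.1% to 24.1% without the drug to 12.3% to 14.9% with it, and in H146 from 7.56% to 8.86% without to 3.82% to 11.4% with it. Genes at 1 TPM or more numbered 21227 to 21772 in untreated and 15554 to 16633 in treated H82. In H146 they numbered 17476 to 17965 untreated and 18778 to 19309 treated. Because TPM is a share, a change of composition can move every gene. The median log2 fold change over all genes tested was -0.56 in H82 and 0.25 in H146. With mitochondrial genes left out of the sum, these medians were -0.73 and 0.24, so in H82 the median lay further from 0. What causes the medians was not tested. After scaling libraries by the median of ratios to a typical gene, these medians were -0.14 and -0.023. Results are therefore given on both scales wherever the call differs.

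The Schlafen proteins form a family that restrains viral and cellular nucleic acids. SLFN11 is recruited to stressed replication forks and blocks their progress for good, and its loss is a known route of resistance to platinum, topoisomerase I inhibitors and PARP inhibitors in SCLC, where the gene is often silenced by polycomb and DNA methylation. SLFN12 and SLFN13 are related RNA-cleaving enzymes, and SLFN5 is a nuclear member of the family that acts on transcription. MGMT strips alkyl groups from guanine and so protects cells from temozolomide, a drug used in relapsed SCLC. Its promoter CpG island is the textbook site of silencing by methylation. TOP1 cuts and reseals a single DNA strand to release torsion and is the target of topotecan and irinotecan, and TDP1 removes the protein remnants that a trapped TOP1 leaves on DNA. PARP1 and PARP2 bind DNA breaks, build chains of ADP-ribose and are trapped on DNA by PARP inhibitors.

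Promoters are shown for 3 genes, picked by their levels. *MGMT* was present in one line and near 0 in the other, *SLFN11* was near 0 in both, and *TOP1* rose in H146. The sequences are from RefSeq (GRCh38.p14), run from 250 bases before to 50 bases after the annotated start, and are written 5′ to 3′ on the strand of the gene. Capitals mark every CG dinucleotide, the site of DNA methylation. The *SLFN11* window is chr17:35373572-35373871 on the minus strand, the *MGMT* window chr10:129466991-129467290 on the plus strand and the *TOP1* window chr20:41028572-41028871 on the plus strand.
SLFN11: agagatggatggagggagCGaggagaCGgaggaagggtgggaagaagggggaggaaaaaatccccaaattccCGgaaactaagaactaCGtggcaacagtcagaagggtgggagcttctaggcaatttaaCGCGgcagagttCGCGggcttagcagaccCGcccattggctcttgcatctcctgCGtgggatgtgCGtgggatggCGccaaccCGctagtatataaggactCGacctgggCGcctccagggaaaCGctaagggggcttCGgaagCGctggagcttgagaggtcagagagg
MGMT: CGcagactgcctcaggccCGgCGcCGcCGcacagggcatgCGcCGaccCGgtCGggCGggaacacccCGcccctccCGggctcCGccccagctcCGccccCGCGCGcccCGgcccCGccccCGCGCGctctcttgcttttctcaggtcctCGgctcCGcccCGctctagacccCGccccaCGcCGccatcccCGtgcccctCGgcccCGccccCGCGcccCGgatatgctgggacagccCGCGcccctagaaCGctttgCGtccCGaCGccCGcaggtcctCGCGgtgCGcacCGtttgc
TOP1: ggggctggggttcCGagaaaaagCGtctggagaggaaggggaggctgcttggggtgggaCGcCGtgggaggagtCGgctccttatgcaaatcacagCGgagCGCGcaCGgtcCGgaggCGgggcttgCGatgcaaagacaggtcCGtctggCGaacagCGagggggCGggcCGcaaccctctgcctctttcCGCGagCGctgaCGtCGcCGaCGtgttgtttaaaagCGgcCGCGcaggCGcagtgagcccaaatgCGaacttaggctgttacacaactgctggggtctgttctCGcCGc
The *MGMT* window held 45 CG dinucleotides, more than 96.5% of 35116 RefSeq promoters of the same length, whose median was 14. There were 18 in *SLFN11* (more than 55.5% of promoters) and 31 in *TOP1* (more than 79.3%). Of the other genes, *PARP1* held 33, *PARP2* 25, *TDP1* 24 and *SLFN12* 13. Methylation itself was not part of these data.

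Promoter letters were also searched on both strands for short motifs of known factors, as a description only. The GC box GGGCGG, present in 45.0% of all promoters, occurred 8 times in *MGMT*, 2 times in *PARP1* and at most 1 time in the other windows. The STAT-type motif TTCNNNGAA, found in 7.66% of promoters, occurred once each in *SLFN11*, *TOP1* and *PARP2*. The ETS core CCGGAA, found in 17.2% of promoters, was present 1 time in *SLFN11* and *TDP1* and 2 times in *SLFN12*, and the copy in *SLFN11* overlaps its STAT-type motif. A simple form of the interferon-stimulated response element, found in 3.57% of promoters, was in none of the 7 windows. The cyclic AMP response core TGACG, in 24.6% of promoters, was present 1 time in *TOP1* and 2 times in *PARP2*.

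The 4 Schlafen genes were near 0 in both lines, with and without FHD-286. Of their 52 values, 19 were listed at 0, and the highest was 0.492 TPM. None passed the filter for the test across genes, which asked for 1 TPM or more in 3 or more libraries of the line, so each was compared on log2(TPM + 1) means by permutation, two-sided and exact. The smallest p that this test can give is 0.1 in H82 and 0.0286 in H146.

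*SLFN11* (chr17:35350305-35373701, minus strand, hg38) was listed at 0 in all 3 untreated H82 libraries and at 0.120, 0 and 0.0640 TPM in the treated ones. In H146 it was at 0.0968, 0.0321 and 0.0584 TPM untreated and at 0.129, 0.0534, 0.143 and 0.134 TPM treated. The groups overlapped in both lines, and 3 of the 4 treated H146 libraries lay above every untreated one while treated replicate 2 lay among them. The exact permutation p was 0.4 in H82 and 0.171 in H146.

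*SLFN5* (chr17:35243071-35273655, plus strand) was the Schlafen gene with the highest values. It was listed at 0 in all 3 untreated H82 libraries and at 0.156, 0.492 and 0.107 TPM in the treated ones, so the groups did not overlap, and the exact permutation p was 0.1, the smallest possible. Among H82 genes below the filter and above 0 in some library, 23.6% had groups that did not overlap. Treated H82 replicate 2, the library that held transcripts typical of H146, had the highest value, and *SLFN5* in H146 ranged from 0.0374 to 0.358 TPM. The part of that RNA in the value was not tested, and replicates 1 and 3 were also above every untreated library. In H146 the values were 0.162, 0.0896 and 0.0408 TPM untreated and 0.0718, 0.358, 0.120 and 0.0374 TPM treated. These groups overlapped (exact permutation p = 0.83).

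*SLFN13* (chr17:35435096-35448837, minus strand) was at 0.0310, 0.0309 and 0 TPM in untreated H146 and at 0.0471, 0.0571, 0.0575 and 0.0751 TPM in treated H146. Every treated library lay above every untreated one, and the exact permutation p was 0.0286, the smallest possible. Of the H146 genes below the filter and above 0 in some library, 14.9% had groups that did not overlap, and the exact permutation p for *SLFN13* after quantile normalization was 0.914. In the limma fit of all genes with no filter its adjusted p was 0.368. In H82 the gene was at 0.0206, 0.0278 and 0 TPM untreated and at 0, 0 and 0.0137 TPM treated (exact permutation p = 0.4). *SLFN12* (chr17:35410922-35433283, minus strand) was at most 0.0358 TPM in H82 and at most 0.0603 TPM in H146, and its groups overlapped in both lines (exact permutation p = 0.4 and 0.429).

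**Figure D1:**
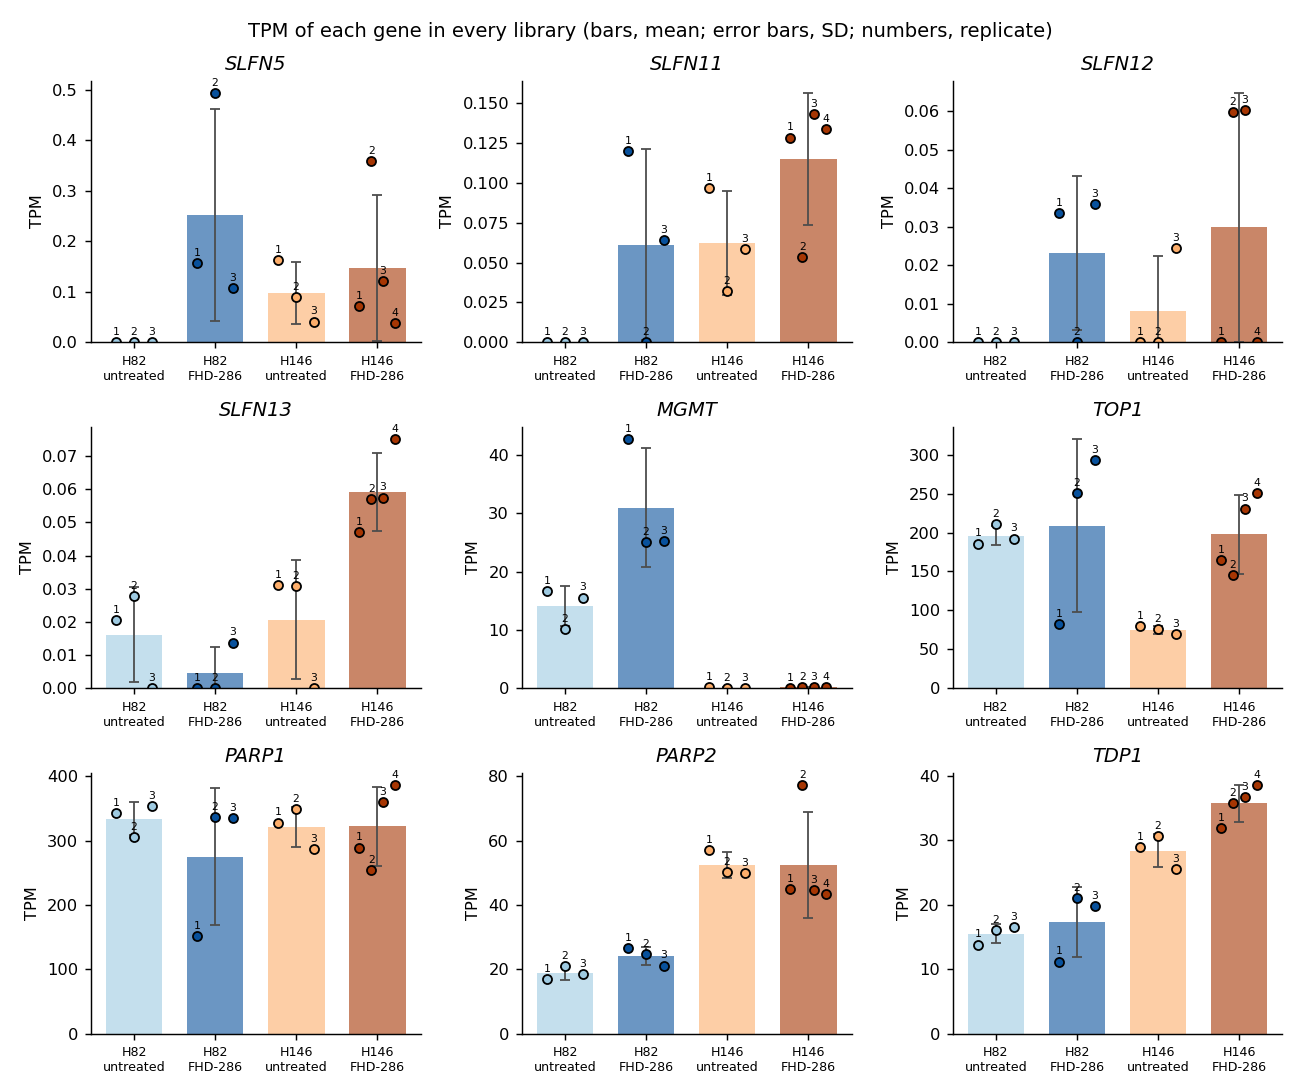
TPM of each of the 9 genes in every library, with a separate linear axis from 0 for each gene; bars are group means, error bars the SD (cut at 0) and numbered points the libraries. The 4 Schlafen genes stay at or below 0.492 TPM, *MGMT* is present in H82 alone and is higher in all 3 treated H82 libraries, *TOP1* is higher in all 4 treated H146 libraries, and treated H82 replicate 1 is the lowest H82 library for *TOP1*, *PARP1* and *TDP1*.

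The Schlafen genes of chromosome 17 lie next to each other. The cluster spans 318 kb (chr17:35243071-35560819) and holds 6 protein-coding Schlafen genes, the 4 above with *SLFN12L* and *SLFN14*. *SLFN14* was listed at 0 in all 13 libraries, and *SLFN12L* was above 0 in 1 treated H82 library (0.0288 TPM) and 1 untreated H146 library (0.0201 TPM). Some genes on both sides were active, while the nearest on the *SLFN5* side, *SLC35G3* and *UNC45B*, were also near 0 in both lines. Of 26 protein-coding neighbors that start within 500 kb of the cluster, 25 were in the tables. In H82, 11 were tested, the others being below the filter, and 0 rose, while 4 fell on the TPM scale. Over all genes tested in H82, 13.1% rose and 45.5% fell, and the list median was -0.46 against -0.56. After median-of-ratios scaling, 3 of the neighbors rose and 0 fell, where 24.2% of all genes rose and 32.9% fell. The largest fall was that of *AP2B1*, a subunit of the clathrin adaptor, from 130 ± 6.09 to 77.0 ± 23.4 TPM (SD, n = 3 and 3; log2 fold change -0.80, limma adjusted p = 0.0263). It was not past the threshold by median of ratios (-0.31, limma adjusted p = 0.256) or without untreated replicate 1, 2 or 3 (-0.82 to -0.76, limma adjusted p 0.0764 to 0.0964). In H146, 10 neighbors were tested, of which 3 rose and 0 fell, with 2 each by median of ratios. Over all genes tested in H146, 32.5% rose and 15.5% fell, with 21.3% and 25.1% by median of ratios. The list median was 0.246 against 0.248. *AP2B1* was among the 3 neighbors that rose, from 78.8 ± 12.1 to 185 ± 25.5 TPM (n = 3 and 4; 1.22, limma adjusted p = 0.000503). Whether reads were counted by strand is not given in the sources used here, so reads of genes that overlap on opposite strands, as at *AP2B1*, may not be fully separated.

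**Figure D2:**
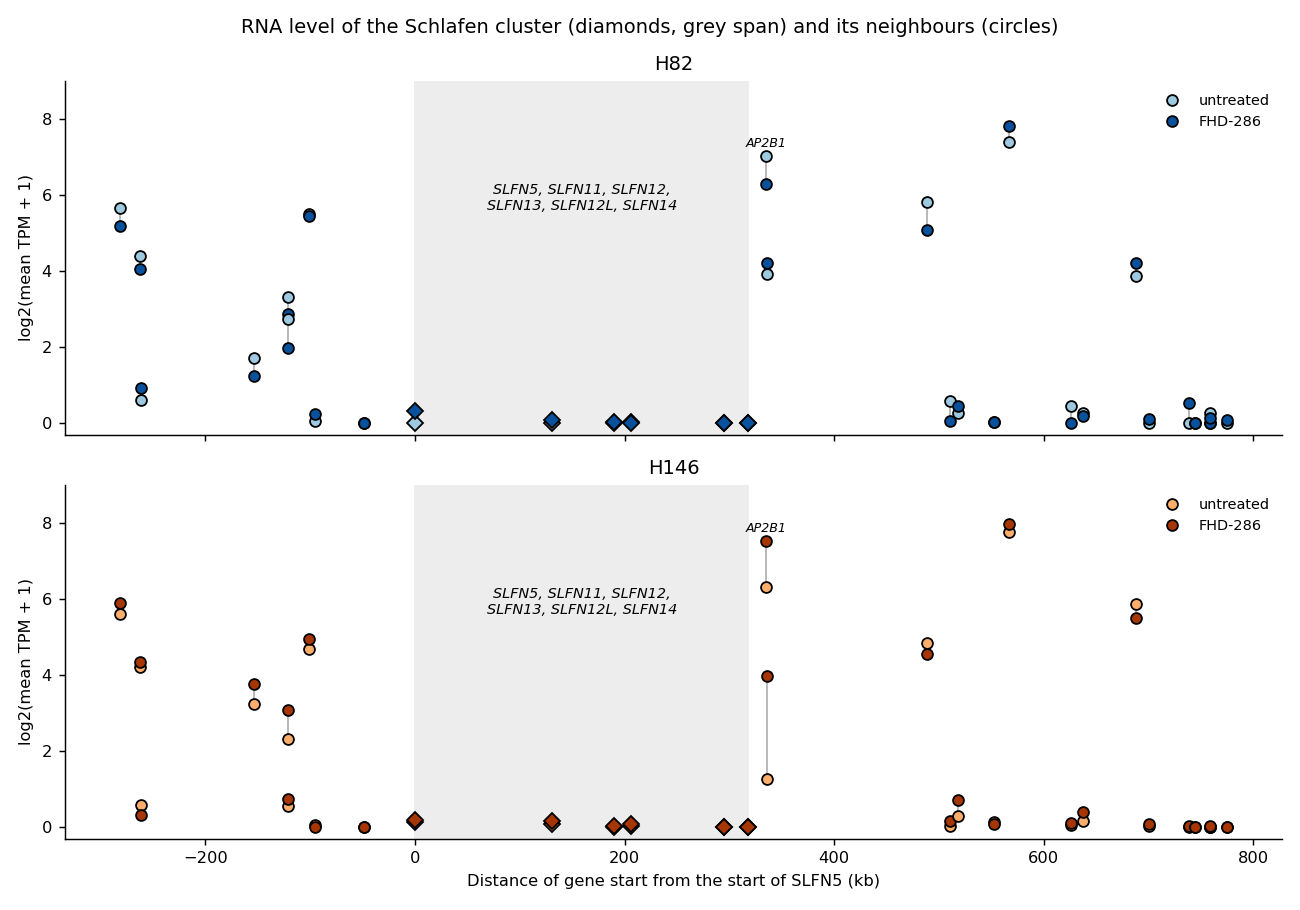
Mean RNA level, as log2(mean TPM + 1), of the 6 Schlafen genes (diamonds, gray span) and 25 neighbors (circles) against the distance of their start site from that of *SLFN5* in kb; light symbols are untreated and dark symbols FHD-286. The Schlafen genes lie at the floor in both lines, as do many of the neighbors, with active genes on either side, and *AP2B1*, the neighbor labelled, lies lower in treated H82 and higher in treated H146 than in the untreated cells.

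*SLFNL1*, a Schlafen-like gene outside the cluster, was expressed in H82. It was at 6.27, 5.36 and 7.17 TPM in untreated and at 1.22, 0.869 and 0.947 TPM in treated H82 libraries, and it fell by 1.85 on the log2 scale (limma adjusted p = 0.000431). The log2 fold change was -1.51 by median of ratios and -0.87 after quantile normalization. *SLFNL1* passed the filter in H82 through the untreated libraries, where it was high, so its fall is a description. In H146 it was below the filter, at 0.493, 0.490 and 0.527 TPM untreated and at 0.918, 1.26, 0.971 and 0.743 TPM treated. All 4 treated libraries were above the untreated ones, with an exact permutation p of 0.0571.

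Genes known to control *SLFN11* were examined as a list of 12, made of ETS and interferon-pathway factors, polycomb subunits and DNA methyltransferases. *SLFN11* stayed near 0 while several of them changed. In H146, 3 of 12 rose and 4 fell, with 1 and 6 by median of ratios (median log2 fold change -0.10, against 0.25 over all genes). *ETS1*, an ETS-family activator, fell from 76.2 ± 7.11 to 9.28 ± 5.70 TPM (n = 3 and 4; log2 fold change -3.09, limma adjusted p = 0.000647). The related *FLI1* fell from 3.46 ± 0.812 to 0.378 ± 0.0601 TPM (-1.68, limma adjusted p = 0.000243), the interferon factor *IRF1* from 12.5 ± 0.618 to 1.22 ± 0.304 TPM (-2.62, limma adjusted p = 2.09e-05) and the methyltransferase *DNMT3B* from 99.6 to 46.8 TPM (-1.08, limma adjusted p = 0.00327). Of these, *FLI1* passed the filter only through the untreated libraries, where it was high, so its fall is a description. The methyltransferase *DNMT3A* rose from 24.5 ± 3.37 to 40.6 ± 2.01 TPM (0.71, limma adjusted p = 0.00255). *EZH2*, the catalytic polycomb subunit, rose from 143 ± 16.4 to 191 ± 11.8 TPM (0.42, limma adjusted p = 0.0180). The call for *EZH2* was lost by median of ratios (0.10, limma adjusted p = 0.522) and without untreated replicate 2 or 3 (0.39 and 0.35, limma adjusted p = 0.0733 and 0.0715).

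In H82, 11 of the 12 were tested, and 1 rose and 4 fell, with 2 and 2 by median of ratios and 3 and 6 without treated replicate 1 (median -0.36, against -0.56 over all genes). *IRF9*, part of the interferon-response complex, fell from 1.32 ± 0.124 to 0.152 ± 0.109 TPM (n = 3 and 3; -1.01, limma adjusted p = 0.00268; after quantile normalization -0.32, limma adjusted p = 0.174). It passed the filter only through the untreated libraries, where it was high, so its fall is a description. *SUZ12*, a polycomb subunit, fell from 75.3 ± 6.60 to 37.9 ± 8.12 TPM (-0.99, limma adjusted p = 0.00397). *EED*, another polycomb subunit, rose from 14.7 ± 0.706 to 24.2 ± 6.53 TPM (0.65, limma adjusted p = 0.0394), a call lost without any 1 of the libraries other than treated replicate 1 (0.50 to 0.68, limma adjusted p 0.0967 to 0.124).

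*MGMT* (chr10:129467190-129770983, plus strand) was the only one of the 9 genes called higher in H82 on the TPM scale with all libraries weighted alike. Other scalings, library weights or leaving out a library changed which genes were called. In H82 *MGMT* was at 16.6, 10.1 and 15.5 TPM untreated and at 42.8, 25.0 and 25.2 TPM treated. All 3 treated libraries lay above all untreated ones, with treated replicate 1 the highest. The mean went from 14.1 ± 3.47 to 31.0 ± 10.2 TPM (SD, n = 3 and 3), a ratio of 2.20, and the log2 fold change of TPM + 1 was 1.07 (SE 0.276, 95% interval 0.42 to 1.72, limma adjusted p = 0.0136). All fold changes here are on the log2(TPM + 1) scale, which understates the change of low genes. Scaled by the median of ratios, the change was 1.53 (limma adjusted p = 0.00455). The call was lost without untreated replicate 2, the lowest library (0.86, limma adjusted p = 0.0555), and held without treated replicate 1 (0.82, limma adjusted p = 0.0144). In bulk RNA, more cells that express a gene and more RNA of it per cell cannot be told apart.

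Of the 9 genes, 5 could be tested in H82, and 1 rose and 0 fell. Over all 19770 genes tested there, 58.6% changed, 13.1% higher and 45.5% lower. In H146, 4 could be tested, and 1 rose and 0 fell, where 47.9% of 19585 genes changed, 32.5% higher and 15.5% lower. By median of ratios the shares over all genes were 24.2% higher and 32.9% lower in H82 and 21.3% higher and 25.1% lower in H146. The counts given for each gene list are to be read beside these shares. After quantile normalization 53.7% of all genes changed in H82, and without treated replicate 1 it was 70.6%. Genes at 1 TPM or more in the libraries of 1 group alone could pass the filter, and their calls follow in part from it. With 1 untreated H82 library left out, 16364 to 16488 genes were tested and 4291 to 4440 were lower. Counts of 1 are too small to be read against such backgrounds. Among the tested genes of the 9, groups did not overlap for *MGMT* and *PARP2* in H82 and for *TOP1* and *TDP1* in H146, against 67.8% and 52.9% of all tested genes.

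In H146 *MGMT* was near 0 with and without the drug. The values were 0.0814, 0.0270 and 0 TPM untreated and 0, 0.120, 0.181 and 0.197 TPM treated. The groups overlapped (exact permutation p = 0.171), and every value lay far under the lowest H82 library at 10.1 TPM. The change in H82 was larger than that in H146 by 0.95 on the log2(TPM + 1) scale (SE 0.319, 95% interval 0.26 to 1.65, limma interaction, adjusted p = 0.0215). *MGMT* passed the filter over 13 libraries only through H82. Near 0 TPM, the added 1 holds the change in H146 close to 0, so this difference mostly repeats the change in H82. The ratio of mean TPM, treated over untreated, was 2.20 in H82 and 3.44 in H146, which is the reverse order. The difference also depends on the amount added before taking logs, and with 0.1 in place of 1 it was 0.47 (limma adjusted p = 0.531). It was also not past the threshold without untreated H82 replicate 2 (0.75, limma adjusted p = 0.0579). Over 24374 genes, the effect differed between the lines for 59.3%, being higher in H82 for 13.3% and lower for 46%. The share that differed was 56.3% by median of ratios, and without treated H82 replicate 1 it was 61.1%, with 46.7% lower. Release 44 of GENCODE places 3 lncRNA genes within or across *MGMT*, 1 of them on the same strand.

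The rest of the alkylation response was examined as a list of 10 genes of direct reversal and mismatch repair. In H82, 2 of 9 tested rose and 0 fell, with 5 and 0 by median of ratios and 2 and 2 without treated replicate 1. *ALKBH2*, which like MGMT reverses alkylation directly but by oxidation, rose from 56.2 ± 6.69 to 147 ± 17.8 TPM (n = 3 and 3; log2 fold change 1.37, limma adjusted p = 0.000525). In H146, 3 of 10 rose and 5 fell, with 2 and 7 by median of ratios, and the list median was -0.33 against 0.25 over all genes. *PMS2*, a mismatch repair endonuclease subunit, rose from 13.3 ± 1.83 to 30.1 ± 5.54 TPM (n = 3 and 4; 1.11, limma adjusted p = 0.00151) and *MLH3*, a mismatch repair gene that also acts in meiosis, from 1.75 to 4.75 TPM (1.06, limma adjusted p = 0.00318). The exonuclease *EXO1* fell from 90.5 ± 10.7 to 54.0 ± 3.78 TPM (-0.73, limma adjusted p = 0.00188).

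*TOP1* (chr20:41028822-41124487, plus strand) was the only one of the 9 genes called higher in H146 in every setting except library weights. The libraries were at 79.4, 75.9 and 69.2 TPM untreated and at 164, 145, 231 and 250 TPM treated. The lowest treated library lay well above the highest untreated one. The mean went from 74.8 ± 5.22 to 198 ± 50.9 TPM (n = 3 and 4), a ratio of 2.64, and the log2 fold change was 1.35 (SE 0.198, 95% interval 0.90 to 1.81, limma adjusted p = 0.000988). The value after median-of-ratios scaling was 1.04 (limma adjusted p = 0.00185), and over 16 alternative settings it lay between 1.04 and 1.56 and past the threshold in each.

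The mean TPM of *TOP1* was 2.62 times as high in untreated H82 as in untreated H146, a comparison of shares that was not tested. The H82 libraries were at 186, 210 and 192 TPM untreated and at 82.5, 250 and 293 TPM treated. Replicates 2 and 3 of treated H82 lay above all untreated libraries, and replicate 1 lay far below them. With all libraries the log2 fold change was -0.10 (SE 0.451, 95% interval -1.17 to 0.96, limma adjusted p = 0.860), and without treated replicate 1 it was 0.47 (SE 0.0969, 95% interval 0.23 to 0.70, limma adjusted p = 0.00623). Median-of-ratios scaling gave 0.39 (limma adjusted p = 0.463). The value of *TOP1* in treated replicate 1 was 1.70 lower on the log2 scale than the mean of replicates 2 and 3, and 0.739% of tested genes were lower still. Genes with a matched total exon length were cut into 3 classes of 4531 (longest), 4528 (middle) and 4533 (shortest), out of 19766 tested. The median log2 difference of that library from replicates 2 and 3 was -0.30 for the longest class, -0.20 for the middle one and 0 for the shortest. The exons of *TOP1* add up to 10127 bases, in the longest class. In the middle class, *MGMT* (6527 bases) lay 0.74 higher in that library, *PARP2* (4062 bases) 0.21 higher and *TDP1* (6223 bases) 0.81 lower. The part of gene length in the value was not tested.

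The effect on *TOP1* was lower in H82 than in H146 by 1.46 on the log2 scale (95% interval -2.57 to -0.34, limma interaction, adjusted p = 0.0273). Without treated H82 replicate 1 the difference was -0.89 (limma adjusted p = 0.0144). With median-of-ratios scaling it was -0.65 and did not pass the threshold (limma adjusted p = 0.258), nor did it without untreated H82 replicate 2 (-1.41, limma adjusted p = 0.0553) or untreated H146 replicate 3 (-1.40, limma adjusted p = 0.0579).

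*TDP1* (chr14:89954939-90044764, plus strand) had values in H146 of 29.0, 30.7 and 25.6 TPM untreated and 31.9, 35.8, 36.7 and 38.6 TPM treated. The groups did not overlap, but the log2 fold change of 0.32 (SE 0.123, 95% interval 0.041 to 0.60) missed the threshold (limma adjusted p = 0.0588), and scaled by the median of ratios it came to 0.011 (limma adjusted p = 0.939). It passed the threshold with library weights (0.33, limma adjusted p = 0.00578). In H82 the values were 13.8, 16.1 and 16.6 TPM untreated and 11.2, 21.0 and 19.8 TPM treated, with treated replicate 1 again the lowest. The log2 fold change was 0.11 (95% interval -0.49 to 0.70, limma adjusted p = 0.733) with all libraries and 0.38 (limma adjusted p = 0.0308) without that one. It was -0.048 without treated replicate 2 and -0.0072 without treated replicate 3. Median-of-ratios scaling gave 0.57 (95% interval 0.021 to 1.12, limma adjusted p = 0.0717). The value passed the threshold after quantile normalization (0.58, limma adjusted p = 0.0487) and with library weights (0.37, limma adjusted p = 0.0436).

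The wider list of topoisomerases and enzymes that process blocked DNA ends had 12 of 13 genes tested in each line. In H82, 3 rose and 1 fell, with 5 and 0 by median of ratios and 4 and 3 without treated replicate 1. In H146, 4 rose and 0 fell on the TPM scale, and 2 rose and 3 fell by median of ratios, so the balance of the list turned with the scaling. *ERCC1*, a subunit of the nuclease that can cut away trapped TOP1, rose in both lines. In H82 it went from 29.5 ± 5.32 to 53.3 ± 12.3 TPM (log2 fold change 0.83, limma adjusted p = 0.0142). H146 had 16.4 ± 1.35 and 37.2 ± 6.52 TPM (1.13, limma adjusted p = 0.000838). Without untreated replicate 2 the H82 value was 0.67 (limma adjusted p = 0.0620). Its partner *ERCC4* fell in H82 from 7.41 ± 0.196 to 4.36 ± 1.28 TPM (-0.68, limma adjusted p = 0.0351), but this call was lost without untreated replicate 1, 2 or 3 or treated replicate 2 (-0.69 to -0.66, limma adjusted p 0.0726 to 0.101) and by median of ratios (-0.26, limma adjusted p = 0.326), and the value was 0.16 after quantile normalization. *TOP2B* rose in H146 from 75.5 ± 12.2 to 147 ± 15.6 TPM (0.96, limma adjusted p = 0.00121). The more abundant *TOP2A* did not rise. It was at 485 ± 51.8 and 390 ± 54.5 TPM in H146 (-0.32, limma adjusted p = 0.0965). In H82 it was at 490 ± 42.3 and 293 ± 123 TPM (-0.84, limma adjusted p = 0.0720). *TOP2A* was called lower by median of ratios in H146 and after quantile normalization in H82.

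**Figure D3:**
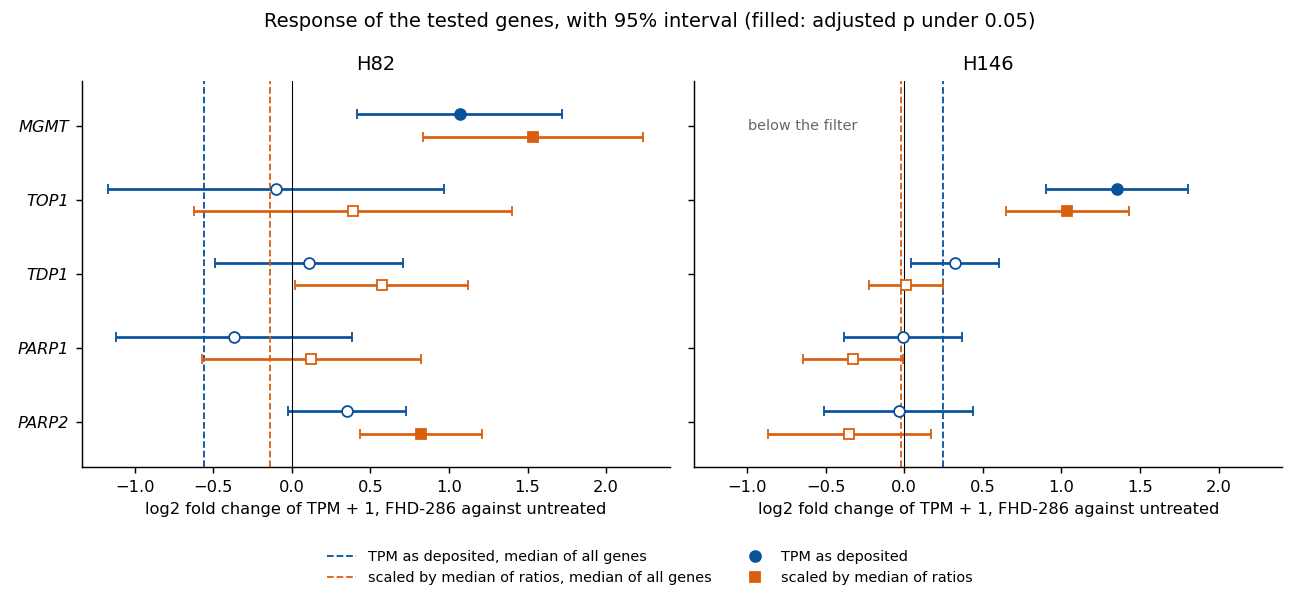
Log2 fold change of TPM + 1 (FHD-286 against untreated) with its 95% interval for the genes that passed the filter, on TPM as deposited (circles) and after scaling by the median of ratios (squares); filled symbols passed the threshold and dashed lines are the median of all genes. *MGMT* in H82 and *TOP1* in H146 are past the threshold on both scales, *PARP2* in H82 only after scaling, and the interval of *TOP1* in H82 spans -1.17 to 0.96.

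*PARP1* (chr1:226360210-226408154, minus strand) was the most abundant of the 9 genes in every group. In H146 it was at 328, 349 and 287 TPM untreated and at 290, 255, 360 and 387 TPM treated. The treated libraries spanned the untreated range. The log2 fold change was -0.0086 (SE 0.165, 95% interval -0.39 to 0.37, limma adjusted p = 0.970). By median of ratios it was -0.33 (95% interval -0.65 to -0.0095, limma adjusted p = 0.0846). In H82 the values were 343, 306 and 354 TPM untreated and 152, 337 and 335 TPM treated. Treated replicate 1 lay below every other library of the line, and the other treated libraries lay within the untreated range. The log2 fold change was -0.37 (95% interval -1.12 to 0.39, limma adjusted p = 0.353) with all libraries and 0.012 (95% interval -0.19 to 0.22, limma adjusted p = 0.905) without replicate 1. After quantile normalization it was -0.71 (limma adjusted p = 0.0291), and by median of ratios 0.12 (limma adjusted p = 0.742). *PARP1* has the largest total exon length of the 9 genes (18399 bases) and lay 1.14 lower on the log2 scale in treated replicate 1 than in replicates 2 and 3, with 3.90% of genes lower.

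*PARP2* (chr14:20343615-20357904, plus strand) was at 16.9, 20.9 and 18.5 TPM in untreated and at 26.6, 24.8 and 21.1 TPM in treated H82. All treated libraries lay above all untreated ones, though the nearest values of the groups were close. The log2 fold change was 0.35 (SE 0.159, 95% interval -0.027 to 0.73), which missed the threshold (limma adjusted p = 0.0977). It passed by median of ratios (0.82, limma adjusted p = 0.00525), after quantile normalization (0.77, limma adjusted p = 0.00905) and with library weights (0.34, limma adjusted p = 0.0257). In H146 the values were 57.0, 50.1 and 49.98 TPM untreated and 44.9, 77.3, 44.7 and 43.3 TPM treated. Treated replicate 2 was above every untreated library and the other 3 treated libraries were below all of them. The log2 fold change was -0.037 (95% interval -0.51 to 0.44, limma adjusted p = 0.894) with all libraries and -0.23 (limma adjusted p = 0.0910) without replicate 2. By median of ratios it was -0.35 (95% interval -0.87 to 0.17, limma adjusted p = 0.234). Neither PARP gene had an effect that differed between the lines on the TPM scale (limma interaction, adjusted p = 0.418 for *PARP1* and 0.244 for *PARP2*). After quantile normalization both passed (-0.80, limma adjusted p = 0.0279 for *PARP1* and 0.94, limma adjusted p = 0.0216 for *PARP2*). For *PARP2* the difference also passed by median of ratios (1.18, limma adjusted p = 0.00626) and without treated H146 replicate 2 (0.58, limma adjusted p = 0.0123). GENCODE places 2 antisense lncRNAs over *PARP2* and 1 over *TOP1*.

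The other PARP family members were a list of 15, several of which use NAD+ to modify proteins. In H82, 0 of 11 tested rose and 8 fell, with 3 and 5 by median of ratios, 2 and 4 after quantile normalization and 2 and 8 without treated replicate 1, and the median log2 fold change was -0.96 against -0.56 over all genes. *PARP14*, a mono-ADP-ribosylating enzyme of interferon responses, fell from 2.30 ± 0.208 to 0.128 ± 0.0869 TPM (n = 3 and 3; -1.55, limma adjusted p = 0.000535), and the tankyrase *TNKS* from 24.3 to 8.47 TPM (-1.42, limma adjusted p = 0.000371). In H82 *PARP14* passed the filter only through the untreated libraries, where it was high, so its fall there is a description. In H146, 4 of 13 rose and 3 fell, with 2 and 4 by median of ratios. *PARP14* rose there from 2.32 ± 0.299 to 7.81 ± 0.413 TPM (n = 3 and 4; 1.41, limma adjusted p = 0.000218). The related *PARP12* fell from 10.1 ± 0.643 to 3.07 ± 0.270 TPM (-1.44, limma adjusted p = 0.000180), and *TIPARP*, induced by the aryl hydrocarbon receptor, from 165 to 67.9 TPM (-1.36, limma adjusted p = 0.00728).

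Cofactors and erasers of ADP-ribose were a list of 6, all tested in both lines. In H82, 2 rose and 1 fell, with 3 and 1 by median of ratios and 3 and 3 without treated replicate 1. *ADPRHL2*, which removes ADP-ribose from serine, rose from 59.5 ± 10.0 to 112 ± 22.4 TPM (0.89, limma adjusted p = 0.00884). *MACROD2*, another hydrolase, fell from 2.98 ± 0.505 to 0.979 ± 0.118 TPM (-1.002, limma adjusted p = 0.00402), though its value was 0.023 after quantile normalization. *MACROD2* passed the filter through the untreated libraries, where it was high, so its fall is a description. In H146, 1 rose and 0 fell, with 0 and 2 by median of ratios. That gene was *PARG*, the main chain-degrading enzyme, at 20.1 ± 2.03 and 28.1 ± 4.59 TPM (0.46, limma adjusted p = 0.0438), a call lost by median of ratios (0.15, limma adjusted p = 0.371) and without any 1 of the libraries other than treated replicate 2 (0.37 to 0.50, limma adjusted p 0.0715 to 0.145).

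Single-strand break and base excision repair genes, with which PARP1 works, were a list of 15. In H82, 8 of 14 tested rose and 1 fell, with 9 and 1 by median of ratios and after quantile normalization and 10 and 2 without treated replicate 1. Their median log2 fold change was 0.56, against -0.56 over all genes. The glycosylase *MPG*, which removes alkylated bases, rose from 9.58 ± 3.08 to 29.3 ± 3.65 TPM (n = 3 and 3; 1.56, limma adjusted p = 0.00191). The endonuclease *APEX1* rose from 215 to 428 TPM (0.99, limma adjusted p = 0.00106) and the glycosylase *NTHL1* from 13.8 to 34.7 TPM (1.25, limma adjusted p = 0.00197). *XRCC1*, the scaffold that PARP1 recruits, rose from 26.5 ± 1.72 to 40.3 ± 3.96 TPM (0.58, limma adjusted p = 0.0105), but not past the threshold without untreated replicate 1 or 2 (0.57 and 0.55, limma adjusted p = 0.0662 and 0.0525). The glycosylase *NEIL1* fell from 10.5 ± 0.963 to 1.45 ± 0.787 TPM (-2.29, limma adjusted p = 0.000777). In H146, 1 of 15 rose and 1 fell, with 1 and 3 by median of ratios and 3 and 2 after quantile normalization. *NEIL2* rose from 15.7 ± 3.64 to 55.2 ± 15.3 TPM (n = 3 and 4; 1.72, limma adjusted p = 0.000948) and *NEIL3* fell from 34.9 ± 1.86 to 17.2 ± 2.49 TPM (-0.99, limma adjusted p = 0.00100).

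**Figure D4:**
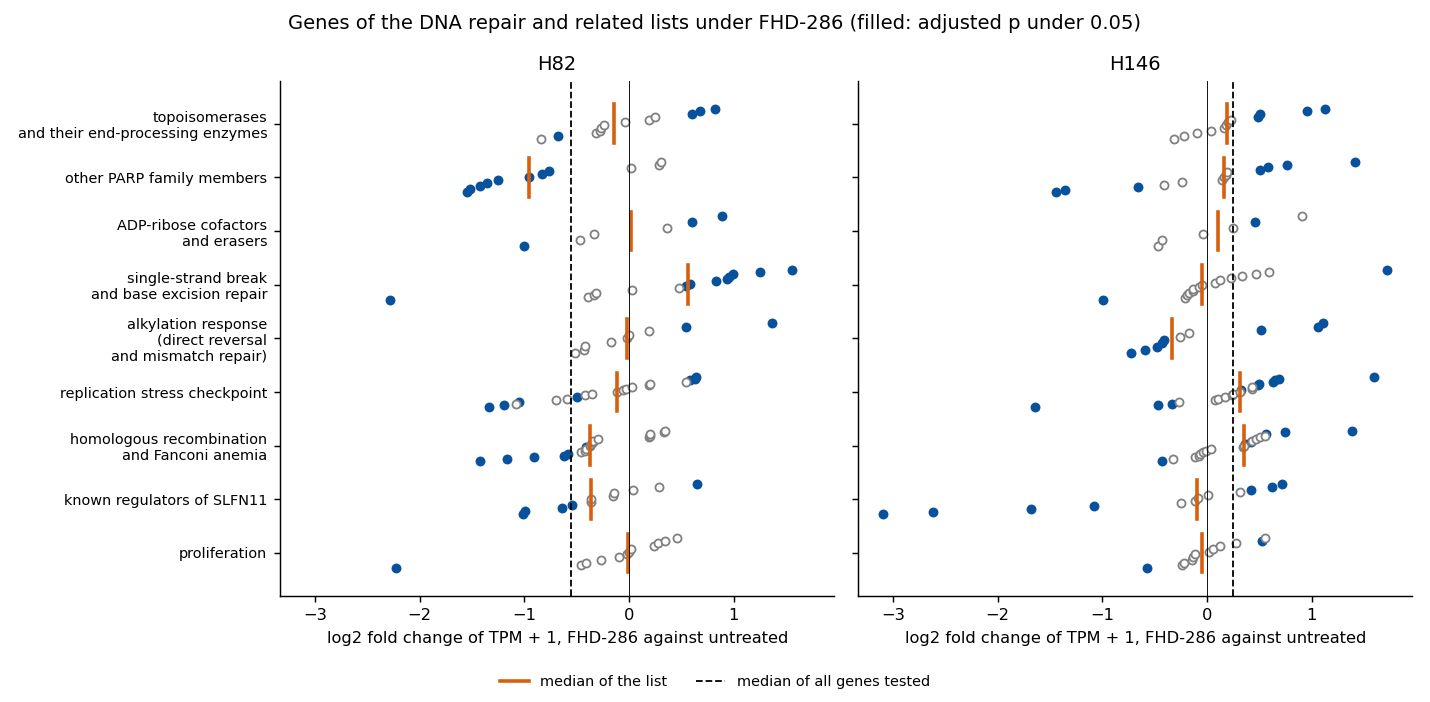
Log2 fold change of TPM + 1 for each tested gene of 9 lists of DNA repair and related genes, in H82 (left) and H146 (right); filled points passed the threshold, orange bars are list medians and the dashed line is the median of all genes tested. In H82 the median of the single-strand break and base excision repair list lies to the right of the dashed line (0.56 against -0.56) and that of the other PARP family members to its left (-0.96).

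The replication stress checkpoint, in which SLFN11 acts on forks coated by RPA, was a list of 19 genes, all tested. In H82, 3 rose and 4 fell, with 8 and 2 by median of ratios, 4 and 5 after quantile normalization and 4 and 8 without treated replicate 1, so its balance turned with the scaling. *RPA1*, the large RPA subunit, rose from 112 ± 1.67 to 180 ± 41.8 TPM (0.64, limma adjusted p = 0.0272), a call lost without any 1 of the libraries other than treated replicate 1 (0.53 to 0.65, limma adjusted p 0.0826 to 0.102). The clamp subunit *HUS1* fell from 30.5 ± 1.07 to 11.7 ± 2.27 TPM (-1.33, limma adjusted p = 0.000924). In H146, 7 rose and 3 fell, and 2 rose and 4 fell by median of ratios. *ETAA1*, an activator of the kinase ATR, rose from 3.91 ± 1.11 to 14.1 ± 4.66 TPM (1.59, limma adjusted p = 0.00223), and the replication licensing factor *CDT1* fell from 448 ± 60.7 to 145 ± 37.4 TPM (-1.65, limma adjusted p = 0.000339).

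Of 20 homologous recombination and Fanconi anemia genes, 19 were tested in each line. In H82, 0 rose and 6 fell on the TPM scale, while 5 rose and 2 fell by median of ratios, 7 and 2 after quantile normalization and 4 and 7 without treated replicate 1. *FANCA*, part of the Fanconi core complex, fell from 51.9 ± 2.47 to 18.9 ± 3.36 TPM (-1.42, limma adjusted p = 0.000573), and *XRCC2*, a recombination factor, from 69.6 to 30.6 TPM (-1.16, limma adjusted p = 0.000542). In H146, 5 rose and 1 fell, with 1 and 4 by median of ratios. *XRCC2* rose there from 11.4 ± 3.24 to 31.6 ± 8.86 TPM (1.39, limma adjusted p = 0.00355). *RAD54L*, a recombination motor protein, fell from 51.5 ± 7.76 to 37.8 ± 3.60 TPM (-0.43, limma adjusted p = 0.0347), a call lost without untreated replicate 1 or 2 or treated replicate 1 or 4 (-0.43 to -0.33, limma adjusted p 0.0609 to 0.147).

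Proliferation was examined beside these genes since many repair genes follow the cell cycle. In H82, 0 of 12 rose and 1 fell, with 4 and 1 by median of ratios, 1 and 4 after quantile normalization and 7 and 1 without treated replicate 1. The gene that fell was *MKI67*, from 129 ± 5.30 to 33.4 ± 21.7 TPM (-2.23, limma adjusted p = 0.0131), which was at -2.26 (limma adjusted p = 0.0506) without untreated replicate 2. In H146, 1 rose and 1 fell, with 0 and 6 by median of ratios. The replicative helicase subunit *MCM5* rose from 64.9 ± 3.90 to 94.2 ± 13.3 TPM (0.52, limma adjusted p = 0.0129), though not by median of ratios (0.21, limma adjusted p = 0.240) or without untreated replicate 3 (0.48, limma adjusted p = 0.0537), and the mitotic kinase *CDK1* fell from 251 ± 14.2 to 168 ± 15.7 TPM (-0.57, limma adjusted p = 0.00410). The part of proliferation in the repair results was not tested.

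By mean TPM, *PARP1* ranked first and *TOP1* second in all 4 groups. Their ranges overlapped in treated H82 alone. In untreated H82 the order went on with *PARP2*, *TDP1* and *MGMT*, at 18.8 ± 2.01, 15.5 ± 1.48 and 14.1 ± 3.47 TPM, and the ranges of *TDP1* and *MGMT* overlapped. In treated H82 *MGMT* came next at 31.0 ± 10.2 TPM, with a range that overlapped that of *PARP2* at 24.2 ± 2.80 TPM, followed by *TDP1* at 17.4 ± 5.37 TPM. In H146 *PARP2* and *TDP1* followed *TOP1* in both groups, at 52.4 ± 4.03 and 28.4 ± 2.59 TPM untreated and 52.5 ± 16.5 and 35.7 ± 2.83 TPM treated, without overlap between neighbors. *PARP2* was 2.79 times and *TDP1* 1.83 times as high in untreated H146 as in untreated H82, while *PARP1* was 1.04 times as high in untreated H82 as in untreated H146. These ratios compare shares of TPM and were not tested. Mitochondrial genes took 22.1% to 24.1% of TPM in untreated H82 and 7.56% to 8.86% in untreated H146, which moves such ratios. The Schlafen genes came last in H82, and in H146 they came last together with *MGMT*, with ranges that overlapped at each step.

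The genes most alike in pattern were found over the 13 libraries, among 24374 genes that reached 1 TPM in at least 3 of them, by the root mean square difference of log2(TPM + 1) after each gene was centered on its own mean. The 13 libraries share 2 cell lines and 1 drug, so likeness is a description. For *MGMT* the nearest were *PHYHD1*, *ECHDC3* and *TSPAN7*, at differences of 0.133, 0.322 and 0.331, where *MGMT* itself varied by 2.19. For *TOP1* they were *METTL13*, *PPP2R1B* and *ADGRA3*, at 0.174, 0.189 and 0.190 against its own 0.711. For *PARP1* they were *NRF1*, *FBXO18* and *BECN1*, at 0.0962, 0.138 and 0.138 against 0.330. For *PARP2* they were *ACTG1*, *RIPPLY2* and *COPG1*, at 0.167, 0.167 and 0.172 against 0.664. For *TDP1* they were *SART3*, *ACTR3* and *TM9SF2*, at 0.112, 0.127 and 0.130 against 0.536.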

How the data were processed

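RNA was isolated and sequenced at a service laboratory. With STAR, the authors aligned reads to hg38 and took gene counts on GENCODE release 28, which they compared by DESeq2. Trim Galore 0.4.4 stands in the submitters' processing notes. They deposited 1 table of TPM values per line, and each of the 13 columns sums to 1000000. How gene length was taken and whether counting used strand is not given in the sources used here. The tables hold no counts, so precision comes from the spread between libraries. No 2 libraries of a line were identical (36 pairs compared).

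From these values, log2(TPM + 1) was fitted in R 4.3.3 with limma 3.58.1 (statmod 1.5.0), using lmFit and eBayes with a trend, for each line alone. Tests were two-sided and took genes that reached 1 TPM in 3 or more libraries. P-values were adjusted by Benjamini-Hochberg across these genes, with a threshold of 0.05. The difference between lines was the interaction of line and treatment over 13 libraries. Members below the filter were compared by exact permutation tests. The pipeline was tested on simulated data. Alternatives were a pseudocount of 0.1, no filter, a mean TPM above 2, median of ratios, quantile normalization, a replicate block, no trend, library weights and each library left out, and, chosen after seeing the data, TPM without mitochondrial genes.

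The members and the 11 gene lists, written from general knowledge, were chosen with earlier results of these data known. All members and the remaining Schlafen genes are named, with the largest rise and fall past the threshold in each list and line, and 3 genes most like each tested member. An item that the rule names is not reported here. Named outside that rule, after their values were seen, are *SLC35G3*, *TOP2A* and *UNC45B* in both lines, *APEX1*, *NTHL1*, *SUZ12*, *TNKS*, *XRCC1* and *XRCC2* in H82, and *AP2B1*, *DNMT3B*, *EZH2*, *FLI1*, *IRF1*, *MLH3*, *TIPARP* and *TOP2B* in H146. Coordinates are from GENCODE release 44 (hg38). RefSeq promoters matched 7 of the 9 genes, all but *SLFN5* and *SLFN13*. Exact tests and figures used scipy 1.17.1 and matplotlib 3.10.9 in Python 3.11.15, beside pandas 2.3.3 and numpy 2.4.6.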

Additional observations from a re-analysis of the deposited data

Results flagged for a closer look

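In the treated H146 group of 4 libraries, the gap from the most distant library to the nearest of the others, divided by the range of the group, passed Dixon's 95% limit for 2 of the 9 genes tested in this way. The ratio was 0.953 for *PARP2*, where treated replicate 2 was at 77.3 TPM and the others between 43.3 and 44.9 TPM. It was 0.835 for *SLFN11*, where treated replicate 2 was at 0.0534 TPM and the others between 0.129 and 0.143 TPM. Chance passes this limit in about 1 of 20 groups.

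The effect of FHD-286 differed between the lines by a limma interaction test for 2 of the 5 genes that could be tested, where 59.3% of 24374 genes differed, 13.3% higher and 46% lower in H82. For *MGMT* the effect in H82 was higher than that in H146 by 0.95 on the log2(TPM + 1) scale (limma adjusted p = 0.0215). All 3 treated H82 libraries lay above the untreated ones. With a pseudocount of 0.1 the difference was only 0.47 (limma adjusted p = 0.531). As *MGMT* was near 0 in H146, the difference mostly repeats the change in H82. The ratio of mean TPM, treated over untreated, was larger in H146 (3.44, against 2.20 in H82). For *TOP1* the difference was -1.46 (limma adjusted p = 0.0273), with all 4 treated H146 libraries and 2 of 3 treated H82 libraries above the untreated ones, but median-of-ratios scaling gave -0.65 (limma adjusted p = 0.258).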

How the results depend on the processing

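TPM has no scaling between libraries beyond its sum, the depth is unknown, and groups are of 3 or 4, so calls near the threshold move with the scaling or with 1 library. In H82, the number of the 9 genes called higher was 2 by median of ratios, 3 after quantile normalization and 3 with library weights, and the number called lower was 1 after quantile normalization. Over all genes tested in H82, 24.2% were higher by median of ratios and 25.6% after quantile normalization, where 28.1% were lower. With library weights, 3975 of 19770 genes were higher and 10478 lower. With 1 library left out, the number of the 9 called higher in H82 ranged from 0 (without untreated replicate 2) to 3 (without treated replicate 1). Over all genes, 1687 of 16488 were higher in the first of these fits and 3503 of 19058 in the second. In H146, 2 of the 9 were called higher with library weights, where 9151 of 19585 genes were higher and 4806 lower. The number with a higher effect in H82 than in H146 was 0 with a pseudocount of 0.1, 2 by median of ratios and 2 after quantile normalization, and 0 to 2 with 1 library left out. The number with a lower effect was 0 by median of ratios, 2 after quantile normalization, and 0 to 1 with 1 library left out. Over 24374 genes, 25.5% had a higher and 30.8% a lower effect by median of ratios. After quantile normalization it was 25.2% and 25.7%. With a pseudocount of 0.1, 3000 genes had a higher and 10759 a lower effect. With 1 library left out, 2593 to 3471 were higher and 8620 to 11570 lower.

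Among members, signs turned for values that were not called. By median of ratios, the log2 change in H82 was 0.39 for *TOP1* and 0.12 for *PARP1*, and the difference between lines was 0.45 for *PARP1* and 0.56 for *TDP1*. After quantile normalization, it was 0.042 for *SLFN13* in H82, -0.029 for *SLFN5*, -0.0084 for *SLFN11* and 0.093 for *PARP1* in H146, and 0.42 for the difference of *TDP1*. Quantile normalization also turned 2 called list genes of H82, *ERCC4* (0.16) and *MACROD2* (0.023). Library weights gave 0.43 for *TOP1* in H82 and 0.12 for *PARP1* in H146, and TPM without mitochondrial genes gave -0.039 for *TDP1* in H82. With 1 library left out, values ranged from -0.44 to 0.47 for *TOP1*, -0.56 to 0.012 for *PARP1* and -0.048 to 0.38 for *TDP1* in H82, from -0.027 to 0.10 for *SLFN5*, -0.10 to 0.10 for *PARP1* and -0.23 to 0.039 for *PARP2* in H146, and from -0.55 to 0.020 for *PARP1* and -0.37 to 0.058 for *TDP1* as a difference. The cause was not tested. *MGMT* in H82 kept its direction, between 0.71 and 1.55 over 15 alternatives.

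Same-numbered untreated and treated libraries did not deviate together (correlations of -0.038 to 0.027 in H82 and -0.111 to 0.011 in H146), so no pairing by number was seen. Libraries of unlike number gave -0.038 to 0.047 in H82 and -0.037 to 0.107 in H146. With groups of 3 or 4 centered on their own mean, this check cannot exclude a pairing, and the labels do not state one. With the replicate number as a block, *MGMT* in H82 stayed at 1.07 (limma adjusted p = 0.00767), *TOP1* in H146 was at 1.23 (limma adjusted p = 0.00385), where treated replicate 4 has no partner, and *PARP2* in H146 was at 0.039. The calls for *ERCC4* in H82 and *MCM5*, *PARG*, *RAD54L* and *EZH2* in H146 were lost with the block. Over all genes the block gave 2333 higher and 8625 lower in H82 and 4749 and 2377 in H146, against 2588 and 8996 and 6356 and 3033 without it. Leaving out 1 untreated H82 library lowered the counts in H82 to 1676 to 1689 higher and 4291 to 4440 lower, with 16364 to 16488 genes tested.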
